A study of Mus musculus with 16 samples.

Results

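The genes described here are the sorting nexins, the Vps genes and the Chmp genes of the mouse small intestinal epithelium, most of which code for proteins that sort cargo in endosomes. They were chosen by symbol alone: every gene of the count tables whose name is Snx, Vps or Chmp followed by a number and, where there is one, a paralogue letter. The rule took 71 of 24421 genes, with 30 Snx, 31 Vps and 10 Chmp members, and it used no measured value. Of these, 70 passed the filter on low counts, together with 13429 genes in all. Snx31, a sorting nexin with a FERM domain, did not pass: it had 1 count in the P6 jejunum, 4 counts in the P36 jejunum and 0 counts in both ileum groups, and it was not tested. The rule went by name, so it took Vps72, a subunit of chromatin remodelling complexes that has no known place in endosomes, and it did not take Vps50, which the tables list as Ccdc132 and which is given below among the partners.

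The study asked how the neonatal jejunum and ileum differ in handling luminal protein. Wild-type mice of the strain labelled C57BL6/J were sampled at P6 (postnatal day 6, before weaning) and at P36 (after weaning), and bulk RNA was sequenced from epithelium that had been released from the tissue with EDTA. Each of 8 mice gave a jejunal and an ileal segment, so the 16 libraries form 4 groups of 4: P6 jejunum, P6 ileum, P36 jejunum and P36 ileum, each with 2 females and 2 males. All groups share the genotype and the release with EDTA, which enriches epithelium but does not purify one cell type.

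Protein that an enterocyte takes up from the lumen reaches early endosomes, from where it is recycled to the surface, sent to the Golgi or delivered to lysosomes. Retromer and the sorting nexins with a BAR domain draw endosomal membrane into tubules that carry receptors back, the tethering complexes CORVET and HOPS join endosomes to each other and to lysosomes, and the ESCRT complexes bud cargo inward into the vesicles of multivesicular bodies. Enterocytes of the suckling ileum are known for a large lysosomal vacuole in which milk protein is digested, and this vacuole is lost around weaning.

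Library totals ranged from 12159237 to 25947276 counts. The epithelial markers Epcam, Cdh1, Vil1, Krt8 and Krt20 summed to between 3658 and 15665 CPM (counts scaled to library size with TMM factors) in every library. Of the 3 P6 ileum libraries that resemble each other in the members, replicate 2 also held stromal transcripts: 5 smooth muscle markers summed to 188 CPM there and to between 1.19 and 2.99 CPM in the other P6 ileum libraries, 5 fibroblast markers to 239 CPM and 5 endothelial markers to 38.1 CPM. The P6 ileum replicate 4 stood apart in the members themselves. Its deviations from the other 3 libraries of its group followed the GC content of the exons, with a Spearman's rho of -0.78 over the 70 members and -0.74 over the 13353 tested genes with a GC value, as a description over genes that share 1 library. The same rho lay between -0.51 and 0.48 over the members in the other 15 libraries. In this library 19 members lay more than 1 log2 unit from the other libraries' median, against 0 to 2 members in each of the others. All 13 members with a GC content of 55% or above were lower there (median -1.67 log2 units), and 18 of the 19 members below 45% were higher (median 0.82). Vps18, with 58.0% GC, had 7.69 CPM in replicate 4 and between 99.2 and 108 CPM in the other 3, while Vps35, with 37.8% GC, had 751 CPM against 365 to 411 CPM. This library enters every fit, where it also widens the spread that all groups share, so results are given with it and, where they rest on it, without it.

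**Figure D1:**
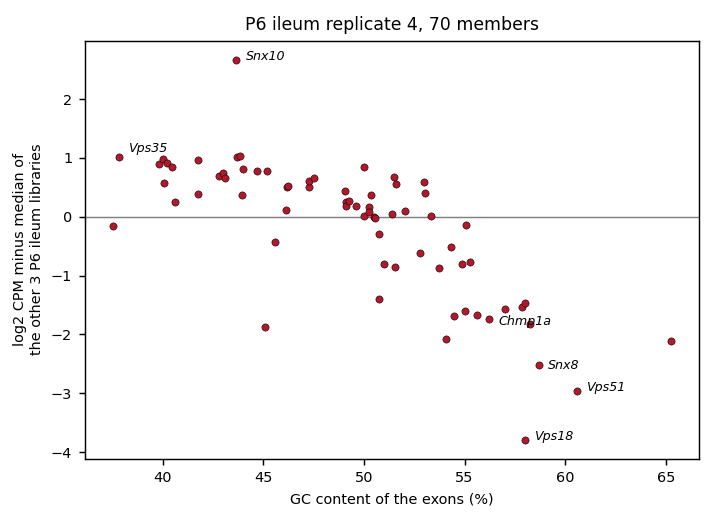
Deviation of the P6 ileum replicate 4 from the median of the other 3 P6 ileum libraries (vertical axis, log2 CPM) against the GC content of each gene's exons (horizontal axis, percent), with 1 point for each of the 70 tested members. Members below 45% GC lie mostly above 0 and all 13 members at 55% or above lie below 0, down to -3.79 for Vps18.

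Between P6 and P36 more of these genes were called lower than higher at the later age, in each region. Of the 70 members, 42 were called in the jejunum (Benjamini-Hochberg adjusted p under 0.05 over all 13429 genes, from the quasi-likelihood test of edgeR), 8 higher and 34 lower at P36. The background was 51.6% of all tested genes called, 24.7% higher and 26.9% lower. In the ileum 42 members were also called, 8 higher and 34 lower, beside 55.7% of all tested genes, 25.5% higher and 30.1% lower. The median log2 fold change of the members was -0.38 in the jejunum and -0.49 in the ileum, and that of all tested genes was -0.01 and -0.03. Both regions together gave 28 members that were lower at P36 in each, beside 21.3% of all tested genes, and 3 that were higher in each (Chmp1b, Snx33 and Vps37b), beside 17.7%. The last count was 5 without the P36 ileum replicate 3 and 6 without the P6 ileum replicate 4. The groups did not overlap for 53 of the 70 members in the jejunum, where this held for 63.8% of all tested genes, and for 35 in the ileum, where it held for 44.4%. Also past an absolute log2 fold change of 2 were 4 members in the jejunum and 3 in the ileum, beside 16.4% of all tested genes in each. In the fit without the P6 ileum replicate 4 the counts were 11 higher and 40 lower in the jejunum, beside 62.6% of 13656 tested genes called (30.2% higher and 32.4% lower), and 11 higher and 36 lower in the ileum, beside 62% (30% and 32%). The members together took 0.609% ± 0.0042 (SD, n = 4) of all counts in the P6 jejunum, 0.752% ± 0.084 in the P6 ileum, and at P36 0.454% ± 0.0048 in jejunal and 0.473% ± 0.012 in ileal libraries. These are shares of library totals, without TMM factors. The P6 ileum replicate 4 had 0.877%, and the rest of that group had between 0.699% and 0.716%. Cell type markers moved with age as well. Summed over each list, 5 epithelial markers had 4484 to 4653 CPM in the jejunum at P6 and 10353 to 11823 CPM at P36, 4 goblet markers 1625 to 2223 and 7186 to 8460 CPM, 3 Paneth markers 20.6 to 819 and 4292 to 8332 CPM, and 7 leukocyte markers 2.83 to 7.04 and 7.41 to 82.4 CPM. The ileal ranges from P6 to P36 were 3658 to 5714 and 10773 to 15665 CPM for epithelium, 1721 to 3913 and 8122 to 17066 CPM for goblet, 29.9 to 685 and 5229 to 14781 CPM for Paneth, and 5.69 to 15.4 and 6.02 to 35.0 CPM for leukocyte markers. The 4 macrophage markers summed to between 165.5 and 509.5 CPM at P6 and to at most 8.53 CPM at P36, nearly all of the P6 sum from Csf1r, with Adgre1 and Cx3cr1 at or below 2.88 CPM in every library. Of the 5 epithelial markers, Vil1, Krt8 and Krt20 were called higher at P36 in both regions. Epcam and Cdh1 were not called in either. Their log2 fold changes in the jejunum and the ileum were 0.22 and -0.14 for Epcam and 0.02 and 0.24 for Cdh1. The rise in the epithelial sum was therefore not shared by all 5 markers. The part of these shifts in the marker sums in the age differences of the members was not tested. In bulk tissue, fewer cells of a type and less RNA per cell cannot be told apart.

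**Figure D2:**
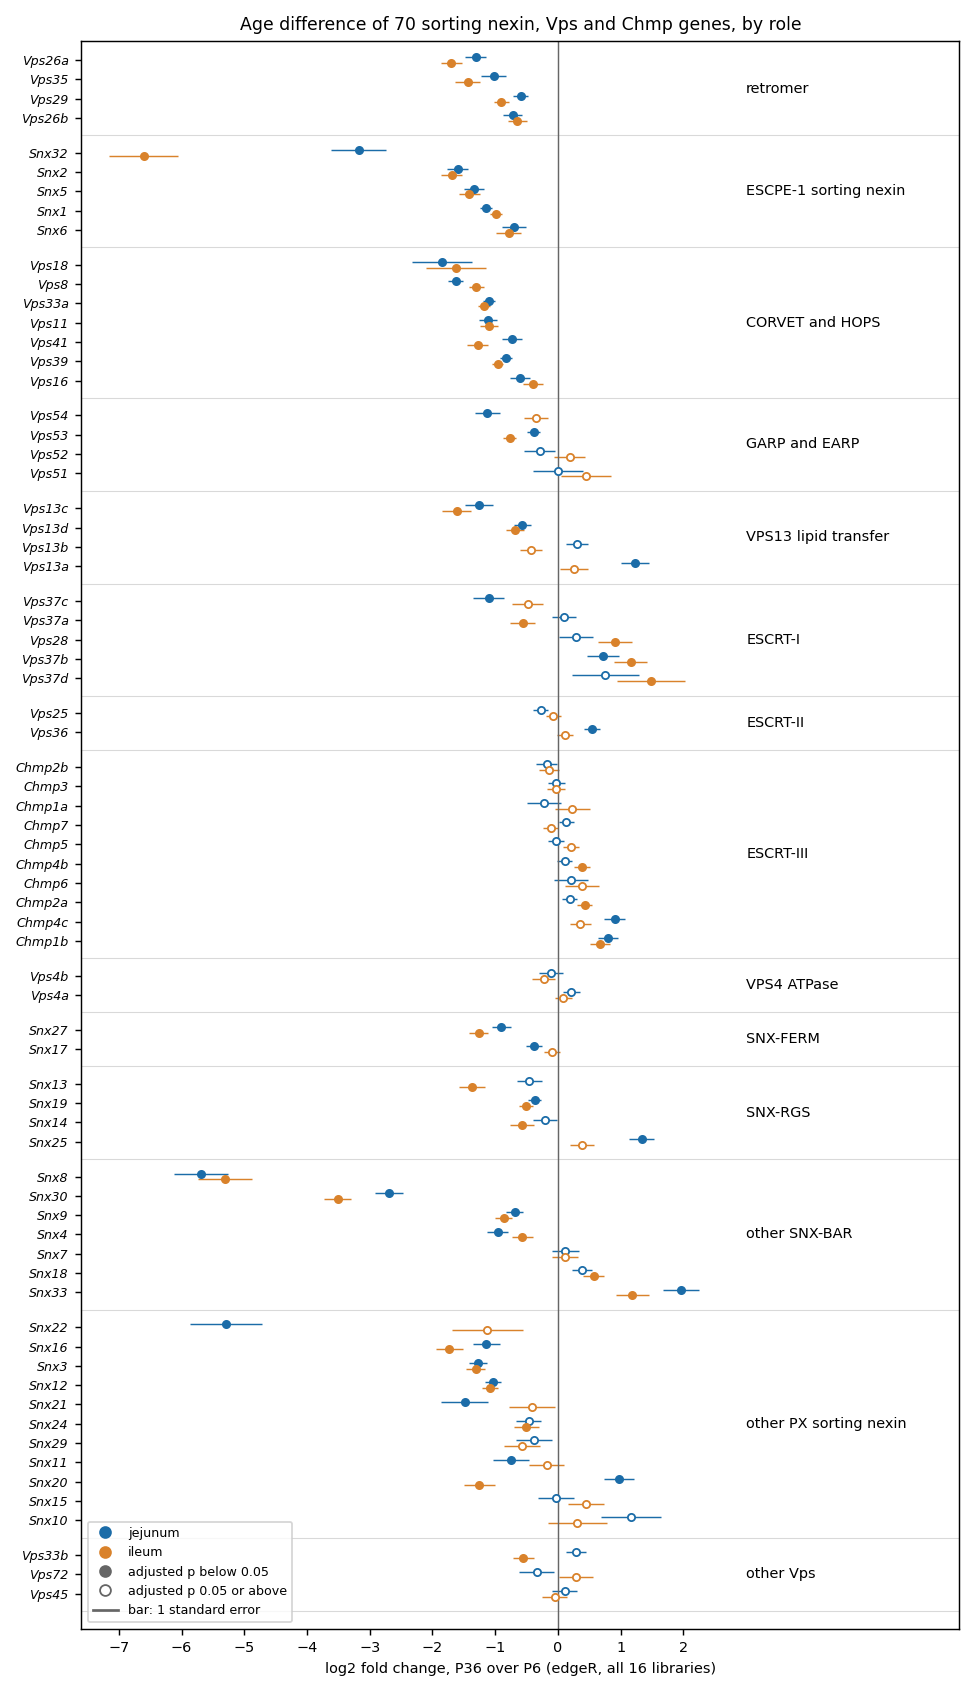
Log2 fold change of P36 over P6 for the 70 tested members, grouped by role, in the jejunum (blue) and the ileum (orange), with bars of 1 standard error and filled points for an adjusted p below 0.05. All points of retromer, the ESCPE-1 sorting nexins and CORVET and HOPS lie below 0, while the 10 ESCRT-III genes lie between -0.22 and 0.90.

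Retromer, the coat of Vps26, Vps29 and Vps35 that sorts receptors out of endosomes, was lower at P36 in all 4 of its genes and in both regions. Vps35, its scaffold subunit, had 361, 343, 355 and 330 CPM in the P6 jejunum (replicates 1 to 4) and 182, 179, 165 and 156 CPM in the P36 jejunum. In the ileum it had 411, 365, 373 and 751 CPM at P6 and 172, 165, 207 and 158 CPM at P36. Every P6 library lay above every P36 library in each region, and 751 CPM is the value of replicate 4. The log2 fold change of Vps35 was -1.03 ± 0.20 (SE) in the jejunum (adjusted p = 0.0004) and -1.44 ± 0.20 in the ileum (adjusted p = 1.6e-05), and -1.12 ± 0.10 in the ileum without replicate 4. Vps26a, one of the paired arrestin-like subunits, fell by 1.31 ± 0.17 in the jejunum and by 1.70 ± 0.17 in the ileum on the log2 scale, and its paralogue Vps26b fell by 0.72 ± 0.15 and 0.65 ± 0.15. In the P6 ileum replicate 4, Vps26a had 419 CPM and Vps26b 118 CPM. The rest of that group had 230 to 254 CPM and 71.7 to 76.4 CPM. Vps29, the subunit that binds regulators of Rab7, fell by 0.59 ± 0.12 and 0.90 ± 0.12. Summed over the 4 genes, retromer went from 737 ± 11.6 CPM (SD, n = 4) to 365 ± 16.9 CPM in the jejunum, and from between 746 and 1389 CPM to between 337 and 406 CPM in the ileum.

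The ESCPE-1 sorting nexins, Snx1 or Snx2 paired with Snx5, Snx6 or Snx32, form the tubules that carry the mannose 6-phosphate receptor and other cargo away from endosomes. All 5 genes were lower at P36 in both regions. Snx5, which binds the cargo signal, had 377, 356, 333 and 343 CPM in the P6 jejunum and 133, 140, 142 and 141 CPM in the P36 jejunum. In the ileum it had 382, 364, 349 and 622 CPM at P6, the last in replicate 4, and 145, 155, 180 and 165 CPM at P36. The ages did not overlap in either region. On the log2 scale Snx5 fell by 1.34 ± 0.16 in the jejunum and by 1.41 ± 0.16 in the ileum (adjusted p = 4.8e-06 and 2.7e-06), or by 1.18 ± 0.09 in the ileum without replicate 4. Snx2 fell by 1.6 ± 0.17 and 1.69 ± 0.17, Snx1 by 1.14 ± 0.10 and 0.98 ± 0.10, and Snx6 by 0.70 ± 0.19 and 0.79 ± 0.19 (0.48 ± 0.10 in the ileum without replicate 4). Snx2 had 363 CPM in the P6 ileum replicate 4 and between 199 and 237 CPM in the rest of that group. Snx32, a close relative of Snx5 and Snx6 known mainly from brain, was rare: at P6 it had 3.14, 4.33, 3.62 and 3.78 CPM in jejunal and 10.2, 10.7, 9.27 and 5.49 CPM in ileal libraries, and at P36 it had 10, 5, 7 and 10 counts in jejunal and 1, 0, 1 and 4 counts in ileal libraries. Its P6 libraries lay above all its P36 libraries in both regions, with log2 fold changes of -3.18 ± 0.44 and -6.60 ± 0.55, and the last of these rests on 6 counts in all at P36.

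CORVET and HOPS share the core subunits Vps11, Vps16, Vps18 and Vps33a. Vps8 is the Rab5-binding subunit of CORVET, which acts at early endosomes. Vps39 and Vps41 are subunits of HOPS, which acts at late endosomes and lysosomes. All 7 genes were lower at P36 in both regions. Vps8 had 39.3, 35.3, 36.3 and 39.2 CPM in the P6 jejunum and 11.2, 13.3, 12.4 and 11.6 CPM in the P36 jejunum. In the ileum it had 37.7, 40.7, 39.3 and 44.1 CPM at P6 and 13.4, 16.8, 17.8 and 17.5 CPM at P36. The ages were far apart in both regions, with log2 fold changes of -1.63 ± 0.12 (adjusted p = 1.7e-08) and -1.30 ± 0.12 (adjusted p = 2e-07). Vps33a, the Sec1-related subunit that guides SNARE assembly, fell by 1.10 ± 0.10 and 1.18 ± 0.10 on the log2 scale, Vps11 by 1.12 ± 0.15 and 1.10 ± 0.15, Vps39 by 0.83 ± 0.09 and 0.96 ± 0.09, and Vps41 by 0.73 ± 0.17 and 1.28 ± 0.17. Vps41 had 262 CPM in the P6 ileum replicate 4 and between 142 and 155 CPM in the rest of that group.

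The ileal values of Vps18 and Vps16 are given with and without the P6 ileum replicate 4. Vps18 had 92.9, 92.5, 90.0 and 78.7 CPM in the P6 jejunum and between 22.3 and 25.9 CPM in the P36 jejunum, and it fell by 1.85 ± 0.48 on the log2 scale there (adjusted p = 0.0041). Its ileal values were 108, 99.2, 107 and 7.69 CPM at P6 and between 23.5 and 28.6 CPM at P36, so replicate 4 lay below all P36 libraries while the other 3 lay above them. Its ileal log2 fold change was -1.63 ± 0.48 (adjusted p = 0.0087) with replicate 4 and -2.0 ± 0.09 (adjusted p = 1.3e-10) without it. The jejunal log2 fold change of Vps16 was -0.60 ± 0.16 and its ileal one -0.40 ± 0.16 (adjusted p = 0.048), or -0.57 ± 0.09 without replicate 4. With the mouse as a random block in limma voom, the ileal adjusted p was 0.163 for Vps18 and 0.0786 for Vps16, both with replicate 4 in the fit.

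Of the 71 members, 47 had a promoter window in the RefSeq table (build GRCm38.p6, from 250 bases before to 50 after a transcript start). As a description, the windows were searched on both strands for CACGTG, the E-box, and for TCACGTG. The latter is the core of the element that TFEB and its relatives bind in lysosomal genes. CACGTG reads the same on both strands, and every TCACGTG contains it. CACGTG was in the windows of 6 of the 47 members (12.8%), of 11.5% of the 10219 tested genes with a window and of 8.09% of all 27025 genes with one. TCACGTG was in 3 of the 47 (6.38%), beside 6.8% of the tested genes. Of the 19 members with a window that were lower at P36 in both regions, 5 held CACGTG (Vps16, Vps33a, Vps26a, Snx5 and Snx8), and of the 27 members in neither age list 1 did (Snx18). These are counts of letters in a window and say nothing of binding. Whether the motif has a part in the age differences was not tested. The 250 bases before the transcript start are shown for 4 of the 5 lower members that hold CACGTG, which is in capitals. They are also shown for Chmp4b, an ESCRT-III gene whose window lacks it.
Vps33a, chr5:123573016-123573265, minus strand: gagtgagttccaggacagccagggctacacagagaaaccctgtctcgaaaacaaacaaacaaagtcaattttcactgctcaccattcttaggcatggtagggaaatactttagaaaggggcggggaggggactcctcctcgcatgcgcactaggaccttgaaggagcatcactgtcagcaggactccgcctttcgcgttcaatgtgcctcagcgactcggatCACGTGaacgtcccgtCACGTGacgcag
Vps16, chr2:130424070-130424319, plus strand: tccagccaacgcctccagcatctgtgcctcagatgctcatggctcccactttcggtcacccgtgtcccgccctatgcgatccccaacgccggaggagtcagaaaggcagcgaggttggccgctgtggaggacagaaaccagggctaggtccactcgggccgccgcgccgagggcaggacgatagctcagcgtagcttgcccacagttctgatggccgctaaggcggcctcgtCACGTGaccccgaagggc
Vps26a, chr10:62486806-62487055, minus strand: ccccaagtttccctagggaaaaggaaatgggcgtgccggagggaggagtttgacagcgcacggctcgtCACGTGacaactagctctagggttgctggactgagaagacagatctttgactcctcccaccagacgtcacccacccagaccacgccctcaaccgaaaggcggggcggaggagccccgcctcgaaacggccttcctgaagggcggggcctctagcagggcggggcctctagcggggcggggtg
Snx8, chr5:140389309-140389558, minus strand: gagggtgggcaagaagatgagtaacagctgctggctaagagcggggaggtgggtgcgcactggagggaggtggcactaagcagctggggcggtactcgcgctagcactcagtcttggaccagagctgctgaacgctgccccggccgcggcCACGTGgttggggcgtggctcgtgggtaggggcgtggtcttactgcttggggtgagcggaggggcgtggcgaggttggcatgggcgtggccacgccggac
Chmp4b, chr2:154656776-154657025, plus strand: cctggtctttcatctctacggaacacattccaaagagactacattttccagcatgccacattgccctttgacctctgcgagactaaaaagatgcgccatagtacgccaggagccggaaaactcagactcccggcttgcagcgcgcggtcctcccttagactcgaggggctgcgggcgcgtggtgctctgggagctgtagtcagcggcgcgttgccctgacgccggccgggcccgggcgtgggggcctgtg
In Vps33a the 2 matches lay 28 and 12 bases before the start, in Vps16 the match lay 18 bases before it, in Snx8 100 and in Vps26a 182. Vps26a has a second window in the table, for a start further downstream, with matches at 175 and 151 bases before that start. The printed window of Vps26a holds a further match 33 bases after its start, outside the bases shown.

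GARP and EARP, which share Vps51, Vps52 and Vps53, return vesicles to the Golgi and to recycling endosomes, and Vps54 is the subunit of GARP. Vps53 was lower at P36 in both regions (-0.39 ± 0.10 and -0.77 ± 0.10). Vps54 had 279, 246, 221 and 234 CPM in the P6 jejunum and between 103 and 128 CPM in the P36 jejunum, a log2 fold change of -1.12 ± 0.20 (adjusted p = 0.00016). In the ileum the ages overlapped for Vps54, which had between 103 and 205 CPM at P6 and between 94.0 and 137 CPM at P36. Vps51 and Vps52 were not called in either region, and Vps52 was called in the jejunum without replicate 4 (-0.29 ± 0.08, adjusted p = 0.0042). Vps51 had 29.2, 30.7, 35.7 and 3.87 CPM in the P6 ileum, the last in replicate 4, and between 30.6 and 36.3 CPM in the P36 ileum.

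The VPS13 proteins are long bridges that move lipids between membranes, and their genes went different ways with age. Vps13a, whose loss causes chorea-acanthocytosis, had 30.4, 25.4, 34.6 and 23.0 CPM in the P6 jejunum and 65.3, 73.9, 63.9 and 63.2 CPM in the P36 jejunum. It rose by 1.23 ± 0.23 on the log2 scale there (adjusted p = 0.0003), with no overlap, while its ileal value was 0.25 ± 0.23 (adjusted p = 0.36) with overlapping groups. Vps13c, which sits at late endosomes and lysosomes, fell by 1.26 ± 0.23 in the jejunum and by 1.62 ± 0.23 in the ileum, from between 25.4 and 52.2 CPM to between 12.5 and 18.2 CPM and from between 47.8 and 83.6 CPM to between 18.6 and 25.1 CPM. Vps13d fell by 0.57 ± 0.14 and 0.68 ± 0.14. Vps13b was not called in either region.

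ESCRT-III, the Chmp filament that pinches off vesicles, had 0 of 10 genes lower at P36 in either region, where the share of all tested genes that were lower was 26.9% for jejunum and 30.1% for ileum. The count of 0 also held at an unadjusted p below 0.05 and in DESeq2, with 2 higher in the jejunum and 3 higher in the ileum by edgeR's quasi-likelihood test and by DESeq2. Its 10 genes had a median log2 fold change of 0.12 in the jejunum and 0.29 in the ileum. Chmp1b, which recruits the microtubule-severing and Vps4-binding partners of the filament, had 54.2, 60.7, 50.0 and 54.6 CPM in the P6 jejunum and 103, 102, 84.8 and 91.3 CPM in the P36 jejunum. The ileal libraries had 64.8, 60.03, 55.6 and 71.7 CPM at P6 and 141, 91.6, 77.0 and 91.1 CPM at P36. The ages did not overlap in either region, and Chmp1b rose by 0.80 ± 0.16 and 0.67 ± 0.16 on the log2 scale (adjusted p = 0.00066 and 0.0024). Chmp4c, a Chmp4 form known from the abscission checkpoint, rose in the jejunum by 0.90 ± 0.17, from between 38.8 and 44.6 CPM to between 64.9 and 88.1 CPM. In the ileum Chmp2a rose by 0.42 ± 0.12 and Chmp4b, the main subunit of the filament, by 0.38 ± 0.12. Chmp3 lay between 122 and 199 CPM in all 16 libraries, with log2 fold changes of -0.02 ± 0.14 and -0.03 ± 0.14. Vps4a and Vps4b code for the ATPase that takes the filament apart, and neither was called in either region or at an unadjusted p below 0.05, nor by DESeq2 (values between -0.23 and 0.21, SE 0.14 to 0.19). Without replicate 4, Vps4a was called in the ileum at 0.24 ± 0.10 (adjusted p = 0.037), Chmp5 joined the genes higher in the ileum, and 0 of 10 Chmp genes were lower.

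ESCRT-I, which binds ubiquitinated cargo, was mixed. Vps28 rose in the ileum by 0.91 ± 0.27 on the log2 scale, or by 0.63 ± 0.11 without replicate 4, and its jejunal value was 0.28 ± 0.27 (0.28 ± 0.10 and called without replicate 4, adjusted p = 0.02). The 4 forms of Vps37 went in different directions. Vps37b rose in both regions, by 0.72 ± 0.26 and 1.16 ± 0.26, Vps37d rose in the ileum by 1.48 ± 0.55 at no more than 1.81 CPM, and Vps37c fell in the jejunum by 1.10 ± 0.25, from between 62.9 and 71.2 CPM to between 27.8 and 33.2 CPM. Vps37a fell in the ileum by 0.56 ± 0.20 (adjusted p = 0.025), a call that was lost without replicate 4 (-0.30 ± 0.15, adjusted p = 0.09) and with the mouse as a block in limma voom (adjusted p = 0.0597). In ESCRT-II, Vps36 rose in the jejunum by 0.55 ± 0.13, and Vps25 was not called (-0.28 ± 0.12 and -0.08 ± 0.12) except in the jejunum without replicate 4 (adjusted p = 0.018).

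Of the sorting nexins outside ESCPE-1, Snx8 had the largest age difference of any member in the jejunum. Snx8, a BAR-domain sorting nexin of early endosomes, had 207, 227, 215 and 197 CPM in the P6 jejunum and 4.00, 3.18, 5.03 and 4.16 CPM in the P36 jejunum. Ileal levels were 200, 242, 229 and 40.0 CPM at P6, the last in replicate 4, and 4.97, 4.25, 4.45 and 4.19 CPM at P36. Even replicate 4 lay above all P36 libraries. The fold was 51.6 in the jejunum and 39.7 in the ileum, at log2 fold changes of -5.69 ± 0.43 (adjusted p = 2.3e-08) and -5.31 ± 0.43 (adjusted p = 4.6e-08), and -5.64 ± 0.14 in the ileum without replicate 4. Per kilobase of exon, Snx8 went from rank 14 of the 71 members in both P6 groups to rank 64 in the P36 jejunum and rank 65 in the P36 ileum.

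Snx30, a BAR-domain sorting nexin that pairs with Snx4, had 23.9, 24.4, 29.5 and 19.96 CPM in the P6 jejunum and 3.18, 2.69, 5.83 and 3.36 CPM in the P36 jejunum. Its ileal values were 82.8, 76.7, 96.1 and 94.2 CPM at P6 and 6.69, 6.86, 8.41 and 8.70 CPM at P36. All P6 libraries lay above all P36 libraries, with log2 fold changes of -2.69 ± 0.22 and -3.51 ± 0.22 (adjusted p = 4.2e-08 and 2.7e-09). Snx4, its partner, fell by 0.96 ± 0.17 and 0.57 ± 0.17 (0.33 ± 0.10 in the ileum without replicate 4), and Snx7, the other partner of Snx4, was at 0.12 ± 0.21 and 0.11 ± 0.21. Snx33, which links dynamin and actin to membrane and is one of the 3 members higher at P36 in both regions, was rare, with 19, 15, 10 and 15 counts in the P6 jejunum and 33, 44, 76 and 66 in the P36 jejunum. It rose by 1.97 ± 0.29 in the jejunum and by 1.18 ± 0.26 in the ileum, from between 0.525 and 0.83 CPM to between 1.94 and 3.52 CPM and from between 1.86 and 3.48 CPM to between 5.88 and 7.99 CPM. Its paralogues went different ways: Snx9, an adaptor of clathrin-coated pits, fell by 0.69 ± 0.13 and 0.87 ± 0.14, and Snx18 rose in the ileum by 0.57 ± 0.16 (0.38 ± 0.16 in the jejunum, adjusted p = 0.058, or 0.041 without replicate 4).

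Snx27 joins retromer to cargo with a PDZ motif, and it fell by 0.90 ± 0.15 in the jejunum and by 1.26 ± 0.15 in the ileum. It had 140 CPM in the P6 ileum replicate 4 and between 80.1 and 95.4 CPM in the rest of that group. Snx17 joins the Commander complex to receptors of the LDL family, and it fell in the jejunum by 0.38 ± 0.12 and was at -0.09 ± 0.12 in the ileum. Among the sorting nexins with an RGS domain, which tether organelles, Snx19 fell in both regions (-0.37 ± 0.11 and -0.51 ± 0.11), Snx13 and Snx14 fell in the ileum (-1.37 ± 0.21 and -0.57 ± 0.19, or -1.06 ± 0.13 and -0.24 ± 0.08 without replicate 4), and Snx25 rose in the jejunum. Snx25 had 49.2, 52.0, 49.0 and 50.4 CPM in the P6 jejunum and 148, 122, 115 and 121 CPM in the P36 jejunum, an increase of 1.33 ± 0.20 on the log2 scale (adjusted p = 3.1e-05). The ileal libraries had between 38.2 and 51.6 CPM at P6 and 87.4, 45.5, 39.9 and 57.1 CPM at P36, with overlapping groups and a value of 0.38 ± 0.19 (adjusted p = 0.11).

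Of the 11 other sorting nexins, grouped here by their PX domain, the jejunum had 7 called and the ileum 5, where 51.6% and 55.7% of all tested genes were called. Snx3, which works with retromer in the recycling of Wntless, had the highest level per kilobase of all members at P6. It had 293, 301, 259 and 336 CPM in the P6 jejunum and 134, 120, 118 and 122 CPM in the P36 jejunum, and it fell by 1.27 ± 0.14 there and by 1.31 ± 0.14 in the ileum. Its paralogue Snx12 fell by 1.04 ± 0.13 and 1.09 ± 0.13, and Snx16 by 1.14 ± 0.22 and 1.73 ± 0.22. Snx22 was nearly confined to the P6 jejunum, with 101, 164, 90 and 119 counts there, 18, 10, 9 and 5 in the ileum of the same age, and at P36 0, 3, 3 and 5 in jejunal and 1, 4, 8 and 4 in ileal libraries. It fell by 5.29 ± 0.57 in the jejunum, a value that rests on 11 counts at P36, and had a log2 fold change of -1.13 ± 0.56 in the ileum (adjusted p = 0.1), or -1.35 ± 0.56 without replicate 4 (adjusted p = 0.047). Snx21 fell in the jejunum by 1.49 ± 0.37, from between 5.14 and 7.98 CPM to between 1.76 and 2.76 CPM. Snx20, which binds the selectin ligand PSGL-1 and is known mainly from leukocytes, was the member called in opposite directions: it rose by 0.97 ± 0.24 in the jejunum and fell by 1.26 ± 0.25 in the ileum. The remaining Vps genes moved little: Vps33b, which forms a complex with Vipas39, fell in the ileum by 0.55 ± 0.17, and Vps45, a regulator of endosomal SNAREs, and Vps72 were not called in either region, with Vps72 called in the jejunum without replicate 4 (-0.34 ± 0.08, adjusted p = 0.0013).

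**Figure D3:**
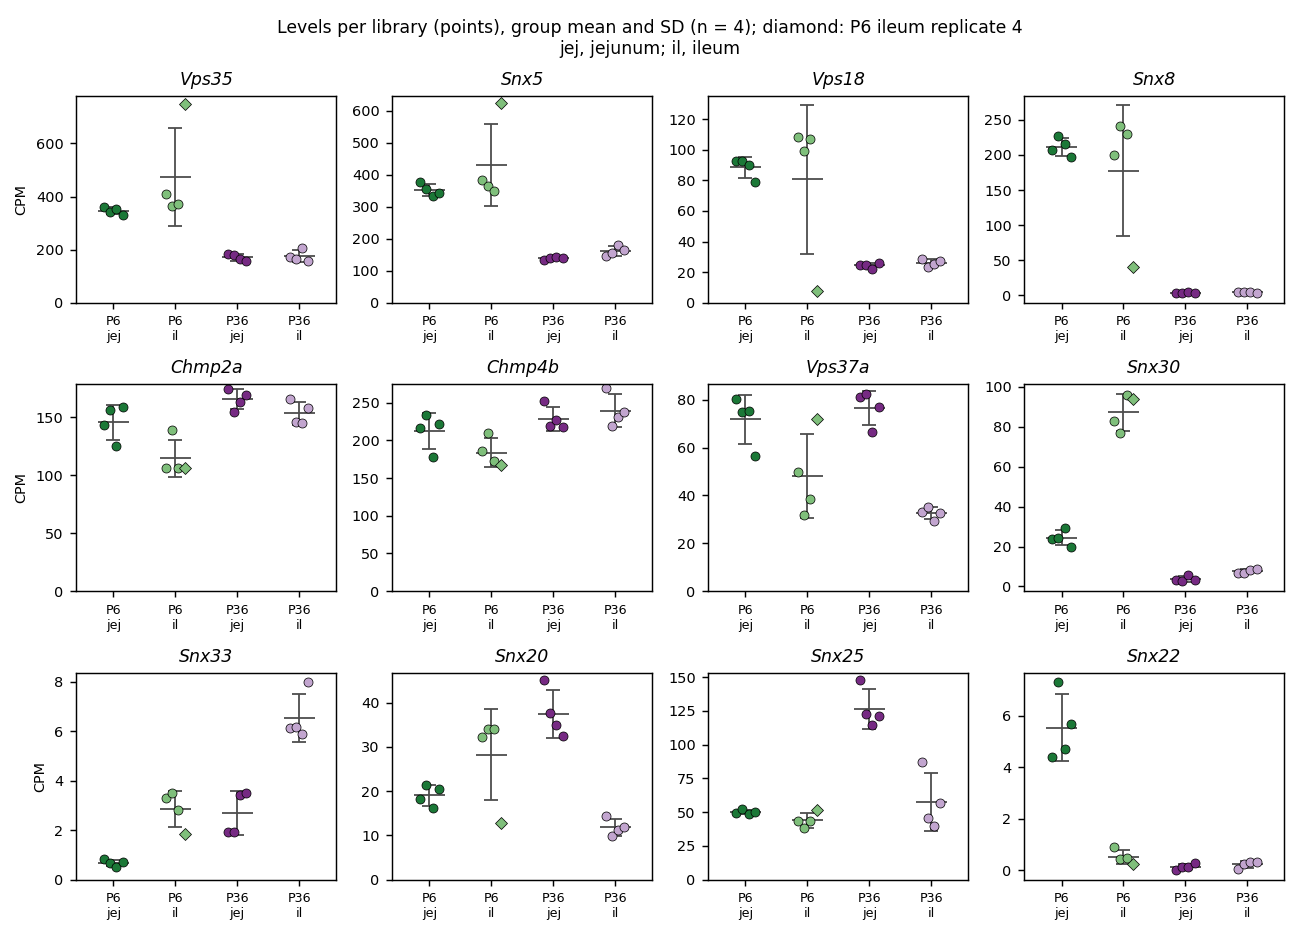
CPM of 12 members in every library (points), with the group mean and SD (n = 4), by group on the horizontal axis. The diamond is the P6 ileum replicate 4, which sits far above the other P6 ileum libraries for Vps35 (751 CPM) and far below them for Vps18 (7.69 CPM), while Snx8 is below 6 CPM in all 8 P36 libraries.

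The other genes of these pathways, 44 in all under symbols that the rule does not match, were all tested. In the jejunum 7 were higher and 21 lower at P36, beside 51.6% of all tested genes called (24.7% higher and 26.9% lower). In the ileum 4 were higher and 23 lower, beside 55.7% (25.5% and 30.1%). Without replicate 4 the jejunum had 9 higher and 25 lower, beside 62.6% of all tested genes (30.2% and 32.4%). The ileum then had 7 higher and 26 lower, beside 62% (30% and 32%). Igf2r, the large mannose 6-phosphate receptor and a cargo of retromer and ESCPE-1, fell by 2.44 ± 0.16 in the jejunum and by 2.78 ± 0.17 in the ileum. Of the WASH complex, which branches actin on endosomes, the genes for Washc2, Washc4 and Washc5, listed as Fam21, A230046K03Rik and E430025E21Rik, fell by between 1.06 and 1.55 in the jejunum and by between 1.70 and 2.36 in the ileum, while Wash1 and Ccdc53 were not called. Wash1 had 12.0 CPM in the lowest P6 ileum library and a median of 40.3 CPM in that group, and without replicate 4 it was called lower at P36 in the jejunum (-0.26 ± 0.07, adjusted p = 0.0059) and in the ileum (-0.53 ± 0.08, adjusted p = 4e-05). Tgfbrap1, a CORVET subunit, fell by 1.16 ± 0.11 and 1.22 ± 0.11, and Rab7, the late endosomal GTPase, by 0.85 ± 0.11 in both. Sortilin (Sort1), another retromer cargo, went the other way and rose by 1.90 ± 0.15 and 1.44 ± 0.15. Among the ESCRT partners, Snf8 and Ist1 rose in both regions (0.45 ± 0.14 and 0.79 ± 0.14 for Snf8, 0.47 ± 0.18 and 0.66 ± 0.18 for Ist1), and Ptpn23 fell in both (-1.88 ± 0.38 and -1.54 ± 0.38).

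Levels can be set against each other only per kilobase of exon. On that scale the 5 highest members of the P6 jejunum were Snx3 (216 CPM per kb), Chmp2a (157), Snx5 (134), Snx9 (133) and Chmp4b (132). At P36 the first ranks in the jejunum went to Chmp2a (178 CPM per kb), Chmp4b (143) and Vps28 (131), all of them ESCRT genes, followed by Snx3 (89.5) and Chmp5 (85.6). The P36 ileum had Chmp2a (166 CPM per kb), Chmp4b (149) and Vps28 (120.5) at its head. The lowest 5 in the P6 jejunum were Snx31, Snx33, Vps37d, Snx10 and Snx22, all at or below 2.17 CPM per kb.

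Some related pairs changed their balance with age, and others moved little. The log2 ratio of Vps13a to Vps13c, in CPM per kb, was -0.34 ± 0.25 (SD, n = 4) in jejunal and -0.80 ± 0.31 in ileal libraries at P6, and 2.11 ± 0.23 and 1.07 ± 0.45 at P36. Every P6 library had less Vps13a than Vps13c and every P36 library had more. The ratio of Vps33a, of CORVET and HOPS, to Vps33b was 0.24 ± 0.14 and 0.24 ± 0.11 at P6, and -1.15 ± 0.14 and -0.35 ± 0.54 at P36, where 1 ileal library stayed above 0 (0.34). Snx7 over Snx30 went from 3.07 ± 0.33 and 1.67 ± 0.30 to 5.95 ± 0.61 and 5.31 ± 0.22. Vps26a over Vps26b went from 2.42 ± 0.07 and 2.83 ± 0.07 to 1.84 ± 0.24 and 1.78 ± 0.20, so Vps26a was the more abundant form in all 16 libraries. At P36 Vps37a over Vps37b was 0.46 ± 0.23 in jejunal and -1.24 ± 0.19 in ileal libraries. Snx3 over Snx12 moved little, from 3.47 ± 0.13 in jejunal and 2.86 ± 0.11 in ileal libraries at P6 to 3.24 ± 0.17 and 2.65 ± 0.11 at P36. These ratios are given without a test.

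**Figure D4:**
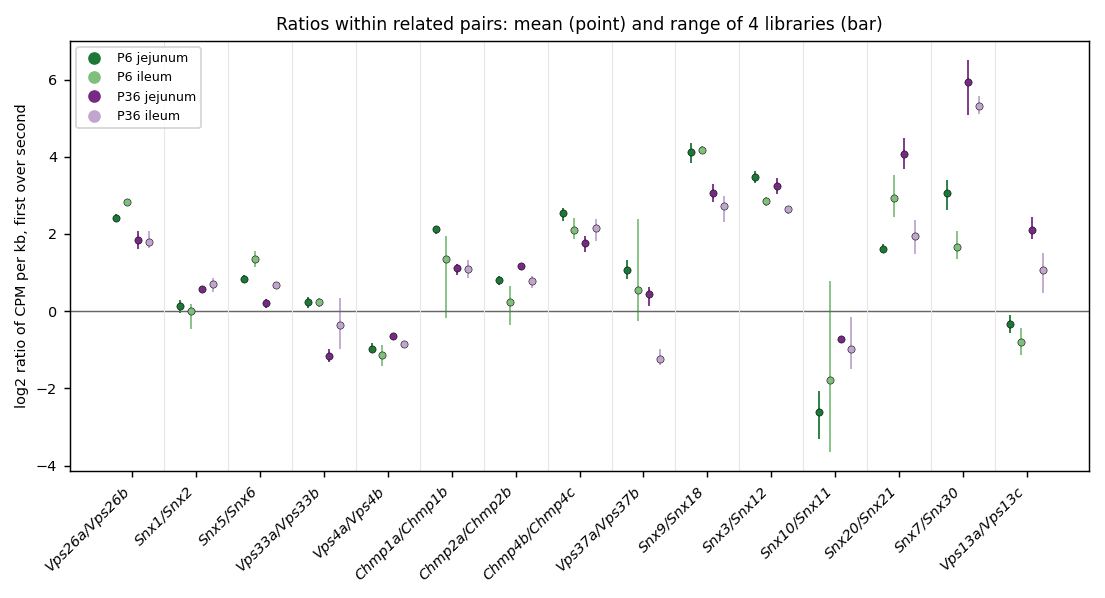
Log2 ratio of CPM per kb within 15 related pairs (first gene over second, vertical axis), as the mean (point) and the range (bar) of the 4 libraries of each group. Vps13a/Vps13c lies below 0 in both P6 groups and above 0 in both P36 groups, and the long P6 ileum bars of Chmp1a/Chmp1b, Vps37a/Vps37b and Snx10/Snx11 include replicate 4.

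The regional comparisons use the same libraries as the age comparisons, so their values are not independent of those above. Between the regions at P6, 13 of 70 members were called, 6 higher in the jejunum and 7 higher in the ileum, beside 25.9% of all tested genes, 11.1% on the jejunal side and 14.8% on the ileal side. The median log2 fold change of jejunum over ileum was 0.02 for the members and -0.05 for all tested genes, and the members' median was -0.04 without replicate 4. The groups did not overlap for 20 of the 70 members, where this held for 30.1% of all tested genes, and 2 members, Snx22 and Snx33, also passed an absolute log2 fold change of 2, beside 6.5%. Scaling by library totals moved the median of all genes by -0.29, and the split with it: 30 members were then called, 2 with more in the jejunum and 28 with more in the ileum. DESeq2 called 19, 11 on the jejunal side and 8 on the ileal side. Without replicate 4, 23 were called, 15 on the jejunal side and 8 on the ileal side, beside 32.6%, and all 13 of the first count were among them. Without the P6 jejunum replicate 1, 8 were called. By library totals, in DESeq2 and without the P6 jejunum replicate 1, the share of all tested genes called was not counted. Those counts and their splits can therefore not be read as a trait of the members. The 13 kept their direction within each of the 2 stems of the mouse identifiers (2 mice each, whose meaning the labels do not give). The calls came from these same libraries, so this is not separate evidence for them.

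Snx22 was the member highest in the jejunum over the ileum at P6, at 4.40, 7.31, 4.72 and 5.70 CPM against 0.888, 0.430, 0.488 and 0.245 CPM, a log2 fold change of 3.42 ± 0.50 (adjusted p = 0.00011). Next came Vps54 of GARP, with 279, 246, 221 and 234 CPM against 144, 109, 103 and 205 CPM (0.80 ± 0.19, adjusted p = 0.0061), and Snx4, with 226, 184, 194 and 196 CPM against 118, 95.9, 103 and 182 CPM (0.68 ± 0.17, adjusted p = 0.0067). In both, replicate 4 held the highest ileal value yet stayed below the jejunum, and without it the log2 fold changes were 1.05 ± 0.15 and 0.92 ± 0.10. Vps37a (0.58 ± 0.20, adjusted p = 0.043), Snx9 (0.39 ± 0.13, adjusted p = 0.045) and Chmp2a (0.35 ± 0.12, adjusted p = 0.044) lay close to the threshold. Chmp2a and Snx9 were higher in the jejunum of 4 of 4 mice and Vps37a of 3, and with the mouse as a replicate block the adjusted p of Vps37a was 0.0574.

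Higher in the P6 ileum were Snx33 and Snx30. Snx33 had 0.83, 0.669, 0.525 and 0.718 CPM in the jejunum and 3.31, 3.48, 2.82 and 1.86 CPM in the ileum (-2.05 ± 0.29, adjusted p = 8e-05). Snx30, with its values given above, was at -1.84 ± 0.20 (adjusted p = 8.6e-06). For both genes all 4 ileal libraries lay above all jejunal ones. Snx32 was at -1.26 ± 0.37, Vps13b at -0.87 ± 0.18 and Vps13c at -0.85 ± 0.23, and smaller differences were called for Vps53 (-0.46 ± 0.10) and Snx12 (-0.44 ± 0.13). All 7 were higher in the ileum of 4 of 4 mice. Between the regions at P6, edgeR called 0 of 4 retromer genes and 0 of 7 of CORVET and HOPS, beside 25.9% of all tested genes. Sets this small cannot tell a count of 0 apart from that share. DESeq2 also called 0 in each, and its share of all tested genes was not counted. At an unadjusted p below 0.05 edgeR had 2 and 1 genes, lower in the jejunum. Without replicate 4, Vps26b was called higher in the jejunum (0.27 ± 0.08, adjusted p = 0.025).

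At P36, 10 of 70 members were called between the regions, 6 on the jejunal side and 4 on the ileal side, beside 16.1% of all tested genes, 8.3% and 7.8% in the same order. The groups did not overlap for 22 members, where this held for 26.9% of all tested genes, and 1 member passed an absolute log2 fold change of 2, beside 3.6%. The medians were 0.01 for the members and -0.04 for all tested genes. Without the P6 ileum replicate 4, which belongs to neither P36 group but shares the estimate of spread, 16 were called, 10 and 6, beside 28.7%.

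Snx20 had 45, 37.6, 34.9 and 32.4 CPM in the P36 jejunum and 14.4, 9.81, 11.2 and 11.9 CPM in the P36 ileum, a log2 fold change of 1.66 ± 0.25 (adjusted p = 0.00027). Its jejunal libraries all lay above its ileal ones. The 7 leukocyte markers summed to between 7.41 and 82.4 CPM in the P36 jejunum and to between 6.02 and 35.0 CPM in the P36 ileum, none of them at 0 throughout a group. Of these markers, Cd8a (4.14 ± 0.79, adjusted p = 0.0018), Cd3g (2.75 ± 0.79, adjusted p = 0.025) and Itgae (2.62 ± 0.58, adjusted p = 0.0055) were called higher in the jejunum. Ptprc, Cd3e, Cd52 and Coro1a were not called. The part of leukocytes in the Snx20 result was not tested. Vps37a had 80.9, 82.4, 66.6 and 76.8 CPM against 33.1, 35.4, 29.2 and 32.6 CPM (1.24 ± 0.20, adjusted p = 0.00052), and Snx25 had 148, 122, 115 and 121 CPM against 87.4, 45.5, 39.9 and 57.1 CPM (1.14 ± 0.19, adjusted p = 0.00076). Neither overlapped between the regions. Vps33b (0.69 ± 0.17) and Snx9 (0.56 ± 0.13) were also higher in the jejunum, and Snx32 (2.17 ± 0.63, adjusted p = 0.027) rests on 32 counts against 6, with libraries that overlap in CPM. Higher in the ileum were Snx33 (-1.27 ± 0.26), Snx30 (-1.02 ± 0.21), Vps8 (-0.43 ± 0.12) and Snx12 (-0.39 ± 0.13, adjusted p = 0.048, or 0.0518 with the mouse as a replicate block). Snx33, Snx30 and Snx12 were thus called higher in the ileum at both ages, and Vps37a and Snx9 higher in the jejunum at both. ESCRT-III had 0 of 10 genes called between the regions at P36 by edgeR, beside 16.1% of all tested genes. A set this small cannot tell a count of 0 apart from that share. DESeq2 also called 0, and its share of all tested genes was not counted. By edgeR 1 gene had an unadjusted p below 0.05.

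**Figure D5:**
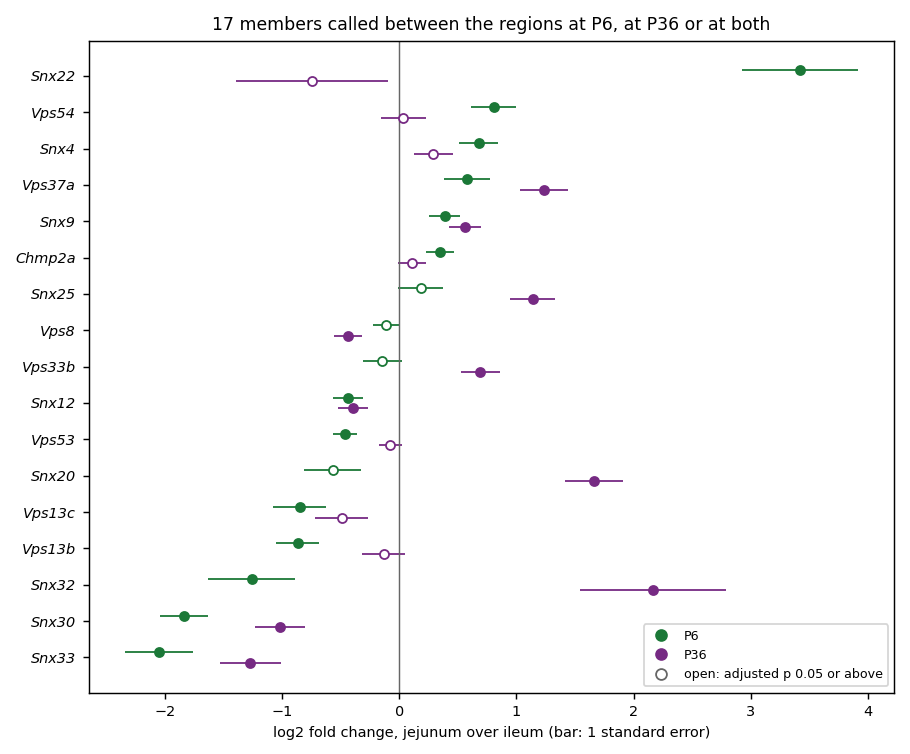
Log2 fold change of jejunum over ileum at P6 (green) and P36 (purple) for the 17 members called at either age, with bars of 1 standard error and open points for an adjusted p of 0.05 or above. Snx32 is the member called on opposite sides of 0 at the 2 ages, at -1.26 and 2.17.

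The regional difference itself differed between the ages for 5 of 70 members (region-by-age interaction, the P6 log2 fold change of jejunum over ileum minus the P36 one), 1 positive and 4 negative, beside 8.69% of all tested genes, 3.68% and 5.01% in the same order. Of the 5, 3 had an absolute value above 2, beside 3.37%. Snx22 had the positive value, 4.16 ± 0.82 (adjusted p = 0.0043), with its regional difference at P6. Snx32 was at -3.43 ± 0.73 (adjusted p = 0.0073) and Snx20 at -2.23 ± 0.35 (adjusted p = 0.00077). Snx20 had 18.2, 21.3, 16.2 and 20.5 CPM in the P6 jejunum and 32.1, 34.0, 34.1 and 12.8 CPM in the P6 ileum, so 3 ileal libraries lay above the jejunum and replicate 4 lay below it. Its P6 regional value was -0.57 ± 0.24 (adjusted p = 0.099) with replicate 4 and -0.81 ± 0.14 (adjusted p = 0.00049) without it. Snx25 (-0.95 ± 0.27, adjusted p = 0.04) and Vps33b (-0.84 ± 0.23, adjusted p = 0.036) completed the 5. Without replicate 4, 9 members were called, 3 positive and 6 negative, beside 14% (7.17% and 6.83%): the same 5 and Vps54 (1.02 ± 0.20), Snx4 (0.63 ± 0.13), Snx13 (-0.61 ± 0.18) and Vps53 (-0.45 ± 0.10). The count was 8 without the P6 ileum replicate 2 and 3 without any 1 of the 4 P6 jejunum libraries, the P36 jejunum replicates 1 or 4, or the P36 ileum replicates 2 or 4. The share of all tested genes called was not counted in those fits.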

How the data were processed

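RNA from 16 epithelial libraries of 8 mice was measured. The authors used Trimmomatic 0.38 for trimming and STAR (2.5.3 in the submitters' notes) for alignment to mm10, and counted read pairs on the reverse strand over exons by gene with featureCounts of Subread 1.6.3, and the deposited values are these raw counts per gene. Reads shared by paralogues or overlapping genes are therefore uncertain. Library totals ranged from 12159237 to 25947276 counts, and their counting error is not the spread between mice that the tests use.

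Groups, regions and ages were taken from the labels. All 16 libraries were fitted together in edgeR 4.0.16 (R 4.3.3) with a mean for each of 4 groups, filterByExpr, TMM factors and the quasi-likelihood test, with Benjamini-Hochberg adjustment and a threshold of 0.05. The standard error is the log2 fold change divided by the square root of F. Alternatives were DESeq2 1.42.0, other scaling, no filter, each library left out, a GC correction and the mouse as a block (edgeR, or limma 3.58.1 voom). Both regions came from each mouse, and deviations from the group means correlated within mice at 0.157 to 0.391 at P6 and 0.24 to 0.347 at P36. The scripts were tested on simulated data. Members were selected by symbol, and the named members are those with the largest called differences and the representatives of each role. The members and lists were chosen with earlier results of these data known.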

Additional observations from a re-analysis of the deposited data

Results flagged for a closer look

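The region-by-age interaction marked 5 members, whose regional difference differed between the ages by the test of that difference: Snx22 at 4.16, Snx32 at -3.43, Snx20 at -2.23, Snx25 at -0.95 and Vps33b at -0.84 (log2).

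A library far from the other 3 of its group was marked where its gap, divided by the range of the group, passed Dixon's critical value for 4 samples. This held for 30 of 284 groups (10.6%), and chance alone marks about 1 in 20. The P6 ileum replicate 4 gave 19 of the members and also the share of counts on the members (0.906). It was the highest library for Vps26b (0.899), Vps41 (0.89), Snx5 (0.881), Vps35 (0.881), Vps4b (0.88), Vps26a (0.875), Snx19 (0.874), Chmp2b (0.859), Snx14 (0.859), Snx13 (0.855) and Snx16 (0.845). It was the lowest for Chmp1a (0.924), Vps18 (0.911), Snx20 (0.907), Vps37c (0.899), Chmp6 (0.895), Snx17 (0.883), Snx29 (0.857) and Vps52 (0.847). The part of GC content in these values was not tested beyond the correction given with the alternatives.

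Of the other libraries, the P36 ileum replicate 1 was highest for Snx29 (0.903), Vps4b (0.864) and Chmp4c (0.83), replicate 3 was lowest for Vps16 (0.914) and replicate 4 was highest for Snx33 (0.858). In the P6 ileum, replicate 1 was highest for Vps39 (0.853) and replicate 2, the library with stromal transcripts, for Chmp2a (0.988). In the P6 jejunum, replicate 1 was lowest for Vps36 (0.89), replicate 2 highest for Chmp4c (0.913) and replicate 3 lowest for Chmp5 (0.863).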

How the results depend on the processing

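No called member reversed its direction in any alternative that was run. Medians near 0 did: between regions at P6 the members' median of 0.02 was -0.04 without the P6 ileum replicate 4 and -0.27 by library totals, and that of CORVET and HOPS went from 0.05 to -0.06 without that library. Calls held in every alternative for 38 of 42 members by age in the jejunum, 31 of 42 by age in the ileum, 6 of 13 between regions at P6, 7 of 10 at P36 and 3 of 5 in the interaction. Leaving out 1 library at a time gave 40 to 51 members by age in the jejunum, 38 to 47 in the ileum, 27 to 33 lower and 2 to 6 higher in both, 8 to 23 between regions at P6, 7 to 16 at P36 and 3 to 9 in the interaction. With an absolute log2 fold change above 2 as well, the same counts were 4, 3, 3, 0, 2, 1 and 3. Scaling by library totals gave 30 members at P6 and 10 in the interaction, with the median of all genes moved by -0.29 between regions at P6, by -0.14 at P36 and by -0.15 in the interaction. The interaction gave 9 members in DESeq2, 3 with no filter, 13 with the GC correction and 8 with the replicate block in limma voom. The GC correction with the replicate block gave 25 members at P6, 20 at P36 and 15 in the interaction. Without the P6 ileum replicate 4 and with the replicate block, chosen after seeing the data like the GC correction, they were 25, 25 and 13. The mouse as a replicate block in edgeR gave 17 members at P6, 10 at P36 and 5 in the interaction, and of the calls it lost only Snx12 at P36 and Vps37a at P6. In limma voom the block lost the ileal age calls of Vps16, Vps18 and Vps37a, and it lost no other call. The share of all tested genes called was counted only in the main fit and in the fit without the P6 ileum replicate 4. Counts in the other settings can therefore not be set against all genes or read as a trait of the members. The causes of these movements were not tested. Rare members, such as Snx22 and Snx32 at P36, are limited by their counts.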

Other observations

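The identifiers of the P6 mice have 2 stems, shared by 2 mice each, and the labels do not say what a stem stands for. Snx7, Snx10 and Snx11 were among the members in which the mice of one stem lay above those of the other in both regions. How often this holds over all tested genes was not counted. Snx10 had 2.61, 12.6, 2.49 and 17.1 CPM in the P6 ileum (replicates 1 to 4), with replicates 1 and 3 of one stem and 2 and 4 of the other. The same stem holds the P6 ileum replicates 2 and 4, the libraries with stromal transcripts and with the GC trend.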
